A study of Mus musculus with 18 samples.

Results

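Healthy lung was set against healthy spleen, tissue against tissue, in mice that carried no tumour. The comparison took 6 of the 18 libraries of the series: 3 healthy lung libraries and 3 healthy spleen libraries, 1 of each tissue at days 7, 14 and 21. They held 3385 of the 19761 cell barcodes used in the whole series, or 3123 without day 21. All groups came from female BALB/cJ mice, aged 9 weeks at day 7, 10 weeks at day 14 and 11 weeks at day 21 per the labels. Healthy mice received no tumour cells, and the day counts the time since their tumour-bearing counterparts were given 4T1-tdTomato-luc2 cells, mouse mammary carcinoma cells that carry reporters, in the fat pad of a mammary gland. The labels list lungs, spleens and biomaterial scaffolds as the tissues taken from tumour-bearing and control mice alike. Cells were measured by Drop-seq: a cell and a barcoded bead share a droplet, and the bead tags each captured transcript with the cell's barcode and with a random molecular tag (UMI) that lets PCR copies be counted once. UMIs were summed over the barcodes of a library, so that fewer cells of a type and less RNA per cell cannot be told apart in any value below. The labels do not give the number of animals per library, so a p-value here reflects how libraries of a group varied.

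The lung is lined by an epithelium that secretes surfactant, the lipid and protein film that keeps alveoli open. Alveolar macrophages live on that surface and clear used surfactant, which makes them cells with an active lipid metabolism, and a dense capillary endothelium lies beneath. The spleen filters blood: its white pulp is built from B cell follicles and T cell zones, and its red pulp holds macrophages that recycle iron from aged erythrocytes, together with plasma cells. In mice the red pulp is also known to make some granulocytes and erythrocytes.

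The libraries were unequal in depth. After the filters on barcodes, lung had 879550, 1132674 and 113896 UMIs on days 7, 14 and 21, against 553900, 1184460 and 19698 UMIs in spleen. The day-21 libraries were small because most of their barcodes also occurred in another library of that day: 80.1% of the UMIs in lung and 93.3% in spleen were set aside for this reason, against 1.24% to 9.57% in the other 4 libraries. Healthy lung and healthy spleen themselves shared 173 deposited barcodes at day 7, 38 at day 14 and 484 at day 21. At day 21, 27 barcodes were left in spleen, against 235 in lung, and 3 UMIs in that spleen library equal 152 CPM (UMIs scaled to a library of 1000000). List counts are therefore given with and without day 21, each over the list members tested in that fit. At day 7 some barcodes differed in their last base alone: 587 lung barcodes had 479 distinct starts of 11 bases, and 331 spleen barcodes had 238. Wherever the UMIs of a gene in 1 barcode are given or left out below, barcodes alike in their first 11 bases were counted as 1.

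Of 9191 genes tested, 954 (10.4%) were called, that is, had an adjusted p under 0.05 in edgeR's quasi-likelihood test with day as the pair. In lung 781 genes (8.5%) were higher and 173 (1.88%) were lower than in spleen. Without day 21 the test called 1037 of 9592 genes (10.8%), 849 higher (8.85%) and 188 lower (1.96%) in lung, and 817 of them were among the 954. The number of calls depended on single days: 345 genes were called without day 7 and 227 without day 14, in fits with fewer libraries, and 29 with every shared barcode kept. DESeq2 called 664 genes, 610 higher and 54 lower in lung. The median log2 fold change over all tested genes was -0.04. A gene enters the test when it has enough UMIs in as many healthy libraries as 1 tissue has, of whichever tissue, scaffold included. A gene that passed this filter through lung alone or spleen alone was bound to lean toward that tissue. The counts below therefore describe rather than test a list.

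**Figure D1:**
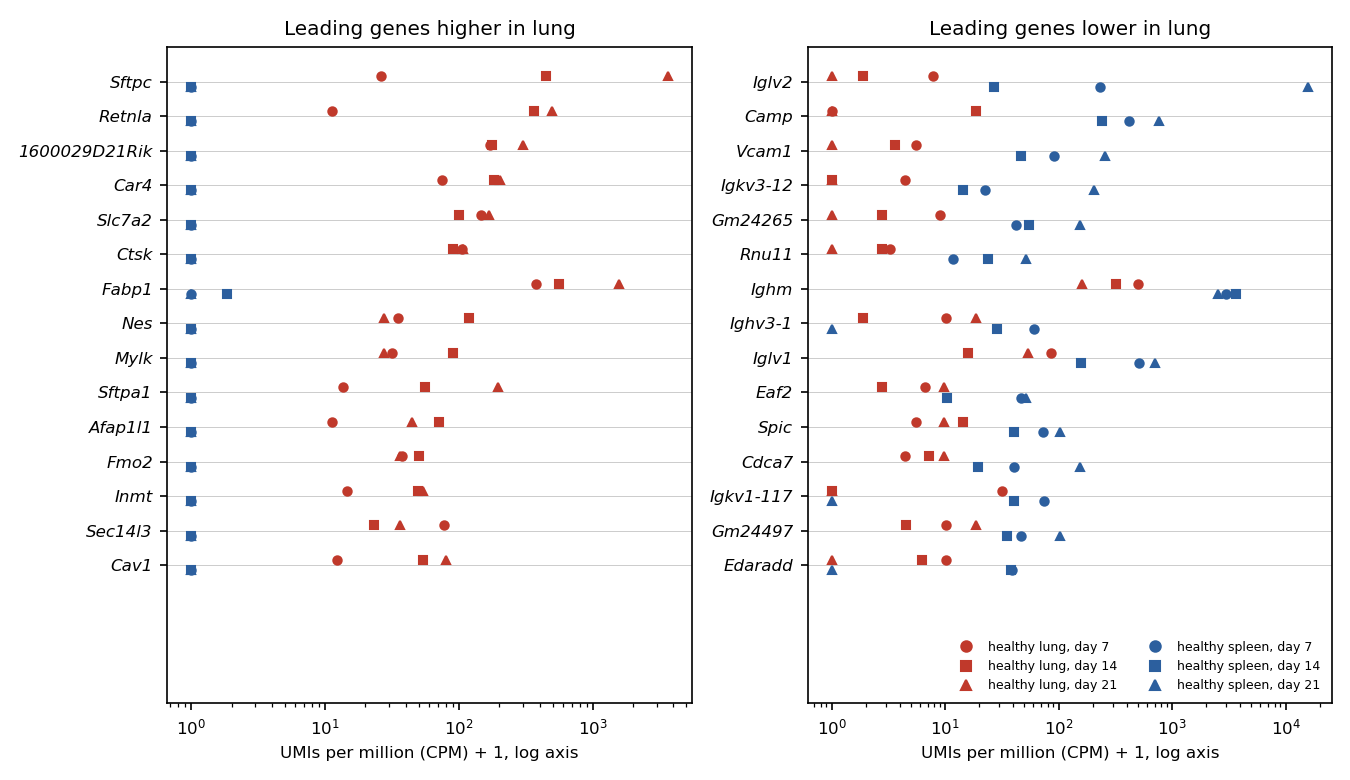
Level of the 15 called genes with the largest fold change in each direction, in CPM plus 1 on a log axis; red symbols are healthy lung, drawn above the blue symbols of healthy spleen, and the shape gives the day. The 15 genes on the left sit at or near 1 on the axis in spleen, because 14 of them had no UMI there, and on the right 12 of 15 genes had no overlap between the tissues.

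The 15 genes with the largest difference toward lung were Sftpc, Retnla, 1600029D21Rik, Car4, Slc7a2, Ctsk, Fabp1, Nes, Mylk, Sftpa1, Afap1l1, Fmo2, Inmt, Sec14l3 and Cav1. The 2 surfactant genes Sftpc and Sftpa1 are products of the alveolar epithelium, and 1600029D21Rik, named Plet1 in the current reference, Ctsk and Fabp1 are known from alveolar macrophages. Car4, a carbonic anhydrase, and Cav1, the coat protein of caveolae, are known from lung capillaries. Inmt encodes a methyltransferase known from lung fibroblasts, Mylk the kinase of smooth-muscle myosin light chain, and Fmo2 a flavin-containing monooxygenase of lung. In spleen 14 of these 15 genes had no UMI in any library, and Fabp1 had 1. All 15 had no overlap in CPM between lung and spleen, which held for 15.8% of all tested genes in that direction. The 15 were chosen for their fold change in these same libraries, so the lack of overlap follows largely from the choice. Without day 21, 14 of the 15 were called; 1600029D21Rik was the exception, with an adjusted p of 0.0545, and its adjusted p lay between 1.68e-31 and 0.0545 over 16 alternative settings.

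Promoters of 2 genes that stand for the directions of the comparison are printed from RefSeq (GRCm38.p6), 250 bases before to 50 after the start site, both on the plus strand. They were chosen after the values were seen: Sftpa1 for the lung epithelium, and Cd79a, a B cell gene, for the genes lower in lung. Capitals mark CACTTG, the reverse complement of CAAGTG, the core that NKX2-1, a transcription factor of lung epithelium, is known to bind.
Sftpa1 promoter, chr14:41131538-41131837: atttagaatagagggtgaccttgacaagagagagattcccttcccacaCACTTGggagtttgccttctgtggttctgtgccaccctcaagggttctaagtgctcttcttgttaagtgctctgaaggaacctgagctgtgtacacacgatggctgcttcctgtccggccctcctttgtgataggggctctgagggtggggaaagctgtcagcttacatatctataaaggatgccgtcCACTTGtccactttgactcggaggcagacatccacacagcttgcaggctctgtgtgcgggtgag
Cd79a promoter, chr7:24897247-24897546: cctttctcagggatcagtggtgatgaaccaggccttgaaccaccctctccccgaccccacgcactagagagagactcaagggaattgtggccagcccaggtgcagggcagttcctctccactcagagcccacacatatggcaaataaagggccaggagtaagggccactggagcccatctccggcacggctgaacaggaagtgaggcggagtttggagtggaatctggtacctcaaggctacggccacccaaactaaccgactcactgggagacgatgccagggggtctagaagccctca
Both strands were searched for CAAGTG and for CCCNNGGG, the core of EBF1, a transcription factor of B cells. In the Sftpa1 window CAAGTG lay on the minus strand, at positions -202 and -14 from the start site, and 13.6% of 32851 promoters of this length held it at least once. The Cd79a window held neither core in these exact letters, and CCCNNGGG stood in 13.7% of promoters. The search allowed no mismatch, so a site that departs from these letters would be missed. These are matches of letters and say nothing of binding.

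Genes of alveolar macrophages were higher in lung. Of 15 genes on the list 12 were tested, and all 12 were called higher in lung, by DESeq2 as well. Without day 21, 13 were tested and all 13 were called. These counts and the sums below leave out Plet1, a list member that the data hold as 1600029D21Rik. Under that name it was tested and called higher in lung with all 3 days. Without day 21 it was tested and not called (adjusted p 0.0545 in edgeR's test). The test was also run with the top barcode left out, that is, in each library the barcode that held most UMIs of the gene. This alternative was chosen after seeing the data. Over all genes it called 8.79% higher and 2.05% lower in lung, and of this list again 12 higher. Their median log2 fold change was 6.13, or 4.98 with the 2 genes that had no UMI in spleen set at their lower bounds. The summed list made up 0.301, 0.333 and 0.583 percent of lung UMIs on days 7, 14 and 21, against 0.00921, 0.0100 and 0.0558 percent of spleen UMIs. Krt79 had 25, 18 and 1 UMIs in lung and none in spleen; it was below the filter with all 3 days, and without day 21 it was tested and called (adjusted p 0.00521). Marco, a scavenger receptor, had 3, 1 and 0 UMIs in lung, against 0, 1 and 0 in spleen.

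Fabp1, a fatty acid binding protein, had 374, 561 and 1572 CPM in lung on days 7, 14 and 21, against 0, 0.844 and 0 CPM in spleen. The tissues did not overlap. With 1 UMI in spleen, the pooled ratio of lung to spleen was 945 with an exact 95% interval of 169 to 37363 that covers counting error only, and the adjusted p was 2.63e-31. Ear1 and Ear2 encode eosinophil-associated ribonucleases that alveolar macrophages make in mice. Ear2 stood at 335, 465 and 658 CPM in lung and 3.61, 4.22 and 0 CPM in spleen, a log2 fold change of 6.81 ± 0.64 (SE), adjusted p 3.81e-23. Every lung library exceeded every spleen library. Chi3l3 (Chil3), a chitinase-like secreted lectin, had 271, 402 and 649.7 CPM in lung, against 9.03, 7.60 and 0 CPM in spleen, a log2 fold change of 5.64 ± 0.58 and an adjusted p of 3.97e-19. Atp6v0d2, a subunit of the vacuolar proton pump, had 334, 352 and 483 CPM in lung, against 0, 4.22 and 50.8 CPM in spleen. The tissues did not overlap for either gene. The mannose receptor Mrc1 was less exclusive, with 462, 419 and 606 CPM in lung and 45.1, 31.2 and 102 CPM in spleen, a log2 fold change of 3.45 ± 0.47, adjusted p 3.85e-11.

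Lipid handling, which draws on several cell types, was higher in lung as well. Of 13 genes, all tested, 11 were called higher in lung and none lower, with a median log2 fold change of 2.45; 11 were called without day 21 and 8 by DESeq2. Pparg, the nuclear receptor on which alveolar macrophages depend, had 38, 54 and 9 UMIs in lung, against 3, 3 and 1 in spleen; the adjusted p was 4.53e-06, and the single UMI in the day-21 spleen library made the CPM ranges overlap. Lipoprotein lipase, Lpl, had 832, 752 and 1247 CPM in lung, against 18.1, 39.7 and 355 CPM in spleen, a log2 fold change of 4.18 ± 0.46, adjusted p 5.87e-17. Plin2, the coat protein of lipid droplets, had 364, 282 and 492 CPM in lung, against 16.2, 16.0 and 152 CPM in spleen. No spleen value of Lpl or Plin2 reached the lowest lung value. The cholesterol exporter Abcg1 had 349, 268 and 597 CPM in lung, against 45.1, 28.7 and 0 CPM in spleen, a log2 fold change of 3.36 ± 0.48. Apoe, an apolipoprotein, differed less: its log2 fold change was 1.25 ± 0.36 (adjusted p 0.00757). Scd1, a fatty acid desaturase, pointed the other way, at -1.14 ± 0.44, and was not called (adjusted p 0.0817), but it was called lower in lung when the top barcode was left out (adjusted p 0.0136), and its adjusted p over 16 alternative settings lay between 0.00441 and 1. Both lysozyme genes were called higher in lung: Lyz2 had 4528, 9042 and 12476 CPM in lung, against 881, 746 and 1472 CPM in spleen, and Lyz1 had 116, 163 and 255 CPM in lung, against 7.22, 8.44 and 0 CPM in spleen. The 2 genes are close paralogs, and how the authors' counting split reads between them is not described in the sources used.

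**Figure D2:**
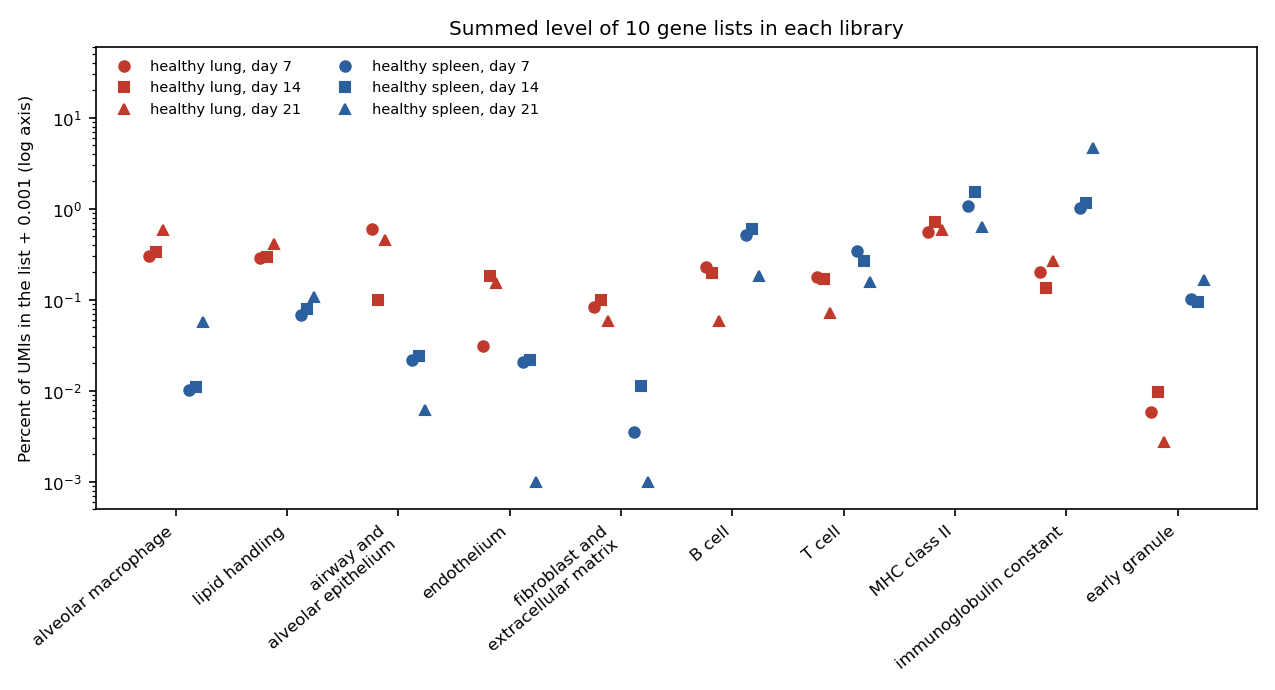
Summed level of 10 gene lists in each library, as percent of the library's UMIs plus 0.001 on a log axis; red symbols are healthy lung, left of the blue symbols of healthy spleen, and the shape gives the day. The alveolar macrophage list lies at or above 0.301 percent in lung and at or below 0.0558 percent in spleen, while the epithelium list varies 0.0972 to 0.603 percent among the lung libraries.

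Most tested epithelial genes were called higher in lung in edgeR's test, on few barcodes. Of 17 airway and alveolar genes 10 were tested and 6 were called higher in lung, Sftpc, Sftpa1, Sftpd, Cxcl15, Ager and Hopx, against 5 without day 21, 4 of 5 tested with the top barcode left out, and 1 of 10 by DESeq2. In spleen 9 of the 17 had no UMI. Napsa, on the same list, had 78, 136 and 4 UMIs in lung, against 94, 237 and 1 in spleen, and was not called. At days 7 and 14 it was lower in lung relative to library totals. On these days it held most of the 115 and 271 UMIs of the list in spleen. Sftpc, the alveolar type 2 cell surfactant protein, had 22, 506 and 413 UMIs in lung on days 7, 14 and 21 and none in spleen, at least 259-fold higher in lung when spleen is set at 3 UMIs over the group. The lung libraries spread widely, at 25.0, 447 and 3626 CPM, and 82.6% of the day-14 and 57.9% of the day-21 UMIs came from a single barcode. Sftpa1, which encodes a surfactant collectin, had 11, 62 and 22 UMIs in lung and none in spleen, at least 26.2-fold higher. Scgb1a1, the secretoglobin of club cells, had 4879, 58 and 2 UMIs in lung, against 0, 2 and 0 in spleen. Although the tissues did not overlap, it was not called (adjusted p 0.196). At day 7 in lung 83.6% of its UMIs stood in 1 barcode, while 314 barcodes held at least 1 UMI. With the top barcode of each library left out it was called (adjusted p 1.06e-17, in a range of 9.34e-40 to 0.32 over 15 settings). Hopx, a homeodomain protein of alveolar type 1 cells, had 60.3, 148 and 281 CPM in lung, against 25.3, 13.5 and 0 CPM in spleen, and Hopx is also known from lymphocytes. None of the 10 lung transcription factors on the list, such as Nkx2-1 and Gata6, had enough UMIs to be tested; Gata6 had 7, 7 and 3 UMIs in lung and none in spleen, and Nkx2-1 had 3, 6 and 0 in lung and none in spleen.

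**Figure D3:**
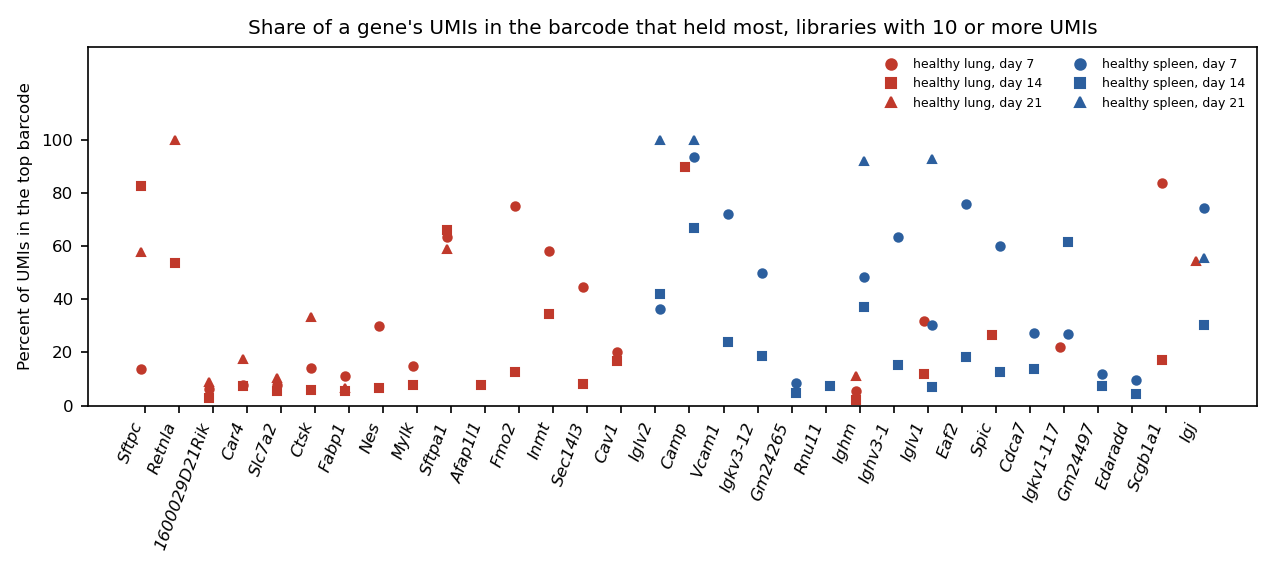
Share of a gene's UMIs that stood in the barcode holding most of them, in percent, for libraries with 10 or more UMIs of the gene; red symbols are healthy lung, left of the blue symbols of healthy spleen, the shape gives the day, and the last 2 genes, Scgb1a1 and Igj, are not leading genes. Over 50% of the UMIs of Sftpc, Retnla, Sftpa1, Fmo2 and Inmt stood in 1 barcode in some lung library, and the same held for 9 of the 15 leading genes lower in lung.

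Genes of vessels and connective tissue were higher in lung. Of 17 endothelial genes 11 were tested and 10 were called higher, with a median log2 fold change of 4.56. Of the list 8 were called without day 21 and 7 by DESeq2. Pecam1, on the same list, was not called. It had 87, 230 and 7 UMIs in lung, against 79 and 177 in spleen at days 7 and 14. Relative to library totals it was lower in lung at day 7 and higher at day 14. In spleen it held most of the 109 and 243 UMIs of the list on these days. Of 16 fibroblast and matrix genes 13 were tested and 12 were called higher, with a median of 3.49, and 10 were called without day 21 and 7 by DESeq2. Car4 had 73.9, 183 and 202 CPM in lung and no UMI in spleen, at least 81.3-fold higher. Tmem100, a membrane protein of lung capillaries, had 3, 249 and 33 UMIs in lung, against 0, 1 and 0 in spleen, a ratio of 236 (exact 95% interval 42.0 to 9340.4). Day 14 held most endothelial UMIs: the list made up 0.0298, 0.181 and 0.153 percent of lung UMIs on days 7, 14 and 21, against 0.0197, 0.0205 and 0 percent in spleen. Among matrix genes, Dcn, which encodes the proteoglycan decorin, had 151, 215 and 132 CPM in lung, against 0, 13.5 and 0 CPM in spleen, a log2 fold change of 4.67 ± 0.59, adjusted p 1.54e-12. The collagen chain Col1a2 had 40, 65 and 5 UMIs in lung, against 0, 5 and 0 in spleen, and Sparc, a matrix-binding glycoprotein, had 37, 117 and 13 UMIs in lung, against 0, 14 and 0 in spleen. In spleen each of these 3 was seen at day 14 alone. Dcn was not called without day 21 (adjusted p 0.0795), in a range of 3.73e-21 to 0.313 over 16 settings.

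Some chemokine, cytokine and monocyte genes were called higher in lung. Of 20 chemokines 16 were tested, 5 were called higher in lung (Ccl6, Ccl9, Cxcl2, Cxcl12 and Pf4) and none lower; 4 were called without day 21, when Cxcl2 was not (adjusted p 0.584), and 4 by DESeq2. Ccl6, a chemokine of myeloid cells in mice, was the most abundant of them, with 2297, 2288 and 2757 CPM in lung, against 88.5, 79.4 and 102 CPM in spleen, a log2 fold change of 4.87 ± 0.45, adjusted p 7.47e-24. Of 16 cytokines 11 were tested, and 4 were higher in lung: Il18, of the interleukin 1 family, Il33, an alarmin of barrier tissues, Osm, of the interleukin 6 family, and Kitl, the ligand of KIT. Without day 21, 2 were higher in lung, and Il33 and Kitl were not called (adjusted p 0.594 and 0.344); Il33 was called under 3 of 14 alternative settings and Kitl under 8 of 15. DESeq2 called 3 cytokines higher and none lower in lung. Il18 had 218, 265 and 263 CPM in lung, against 23.5, 19.4 and 102 CPM in spleen, without overlap (log2 fold change 3.33 ± 0.50, adjusted p 4.77e-09). The 2 cytokines lower in lung, Ltb and Lta, encode lymphotoxins, which organise lymphoid tissue; Ltb had 409, 347 and 26.3 CPM in lung, against 673, 823 and 305 CPM in spleen, with overlap through day 21 and a log2 fold change of -1.22 ± 0.40. Both were called without day 21. Of 10 classical monocyte genes 4 were called higher in lung, Ccr2, F13a1, Fn1 and Itgam, and of 10 non-classical monocyte genes 4, Ace, Cx3cr1, Fabp4 and Fcgr4; without day 21 the counts were 4 and 6, and by DESeq2 4 and 3. Ccr2, the chemokine receptor by which monocytes leave marrow, had 249, 389 and 255 CPM in lung, against 117, 90.3 and 152 CPM in spleen, a log2 fold change of 1.48 ± 0.43. Ace, which encodes angiotensin-converting enzyme and is also an endothelial gene, had 25, 64 and 11 UMIs in lung, against 0, 3 and 0 in spleen, a ratio of 27.6 (9.16 to 136).

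Calls among cytotoxic and heat shock genes lay near the 8.5% of all tested genes called higher in lung, and are not a result about these lists. Calls among mature neutrophil genes lay near it with all 3 days, but not without day 21 or with the top barcode left out. Of 10 tested genes of mature neutrophils 1 was higher in lung, Csf3r, the receptor of granulocyte colony-stimulating factor. It had 184, 94.5 and 43.9 CPM in lung, against 34.3, 45.6 and 0 CPM in spleen (adjusted p 0.026). Without day 21, 4 of 10 were called higher, against 8.85% of all tested genes. With the top barcode left out 4 of 9 tested were, against 8.79%, and by DESeq2 none. Of 14 tested natural killer and cytotoxic genes 2 were higher in lung: Gzma, a granzyme, at a log2 fold change of 1.26 ± 0.43 (adjusted p 0.0343), and Klrg1, a lectin-like receptor, at 1.80 ± 0.60 (adjusted p 0.0291). Gzma had 225, 418 and 140.5 CPM in lung, against 65.0, 219 and 0 CPM in spleen, and the tissues overlapped. Of this list 2 were called without day 21 and none by DESeq2. Of 14 immediate early genes, which respond within minutes to stress such as tissue dissociation, 3 were higher in lung, Atf3, Dusp1 and Ier3, against 7 without day 21, 1 with the top barcode left out and 2 by DESeq2. Atf3 had 234, 94.5 and 579 CPM in lung, against 18.1, 15.2 and 102 CPM in spleen, a log2 fold change of 3.20 ± 0.49. Of 8 heat shock genes 1 was called higher in lung, Hspa1a, an inducible chaperone of the HSP70 family, with 27.3, 17.7 and 17.6 CPM in lung, against 0, 14.4 and 0 CPM in spleen, and none was called without day 21 (adjusted p of Hspa1a 0.671) or by DESeq2. The part of immediate early and heat shock genes in the differences between the tissues was not tested. Among dendritic cell, mast cell and platelet genes, Ccr9 of the plasmacytoid dendritic cell list was lower in lung. Gata2 of the mast cell list and the platelet chemokine Pf4 were higher. Without day 21 Pf4 was called, and Ccr9 and Gata2 were not. Of the 8 platelet genes Pf4 alone was tested. Itga2b had 3 and 5 UMIs in spleen at days 7 and 14, Gp9 had 1 at day 14, and neither had any in lung. Gp1bb had 3 UMIs in each tissue, all at day 14.

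B cell genes were lower in lung in edgeR's test. Of 17 genes 16 were tested, 15 were called lower in lung and none higher, and the median log2 fold change was -1.44. Without day 21 all 16 were called and with the top barcode left out 15, but DESeq2 called 6 of 16. Cd79a and Cd79b, the signalling chains of the B cell receptor, gave log2 fold changes of -1.42 ± 0.41 and -1.42 ± 0.42. Cd79a had 387, 289 and 79.0 CPM in lung on days 7, 14 and 21, against 789, 993 and 254 CPM in spleen. The tissues overlapped in CPM through the day-21 spleen library, and spleen was higher on each day. Ms4a1, which encodes CD20, had 373, 297 and 158 CPM in lung, against 921, 1009.7 and 457 CPM in spleen, without overlap (log2 fold change -1.42 ± 0.42, adjusted p 0.00955). The largest differences on the list were those of Pou2af1, a coactivator that B cells need to form germinal centres (-2.09 ± 0.48, adjusted p 0.0004), and Spib, an ETS factor of B cells (-2.02 ± 0.49, adjusted p 0.000852). Pou2af1 had 50, 24 and 0 UMIs in lung, against 105, 118 and 1 in spleen.

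In class II antigen presentation calls were lower in lung. Of 10 genes, all tested, 5 were called lower in lung and none higher, with a median log2 fold change of -0.99; 7 were called without day 21 and 7 with the top barcode left out, but none of 10 by DESeq2. The largest differences were those of H2-Ob and H2-Oa, the chains of H2-O, which holds back peptide loading in B cells. H2-Ob had 53, 53 and 0 UMIs in lung, against 101, 236 and 2 in spleen, without overlap in CPM (log2 fold change -1.99 ± 0.45, adjusted p 0.00026). H2-Oa came to -1.59 ± 0.48 (adjusted p 0.0128). Of the 11 tested lymphocyte homing receptors 2 were lower in lung, against 2 without day 21 and 1 by DESeq2. Cxcr5, which guides B cells into follicles, had 17, 9 and 0 UMIs in lung, against 29, 67 and 1 in spleen (log2 fold change -2.21 ± 0.55, adjusted p 0.00122), and Ccr6 came to -1.50 ± 0.50 (adjusted p 0.0307, or 0.108 without day 21).

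**Figure D4:**
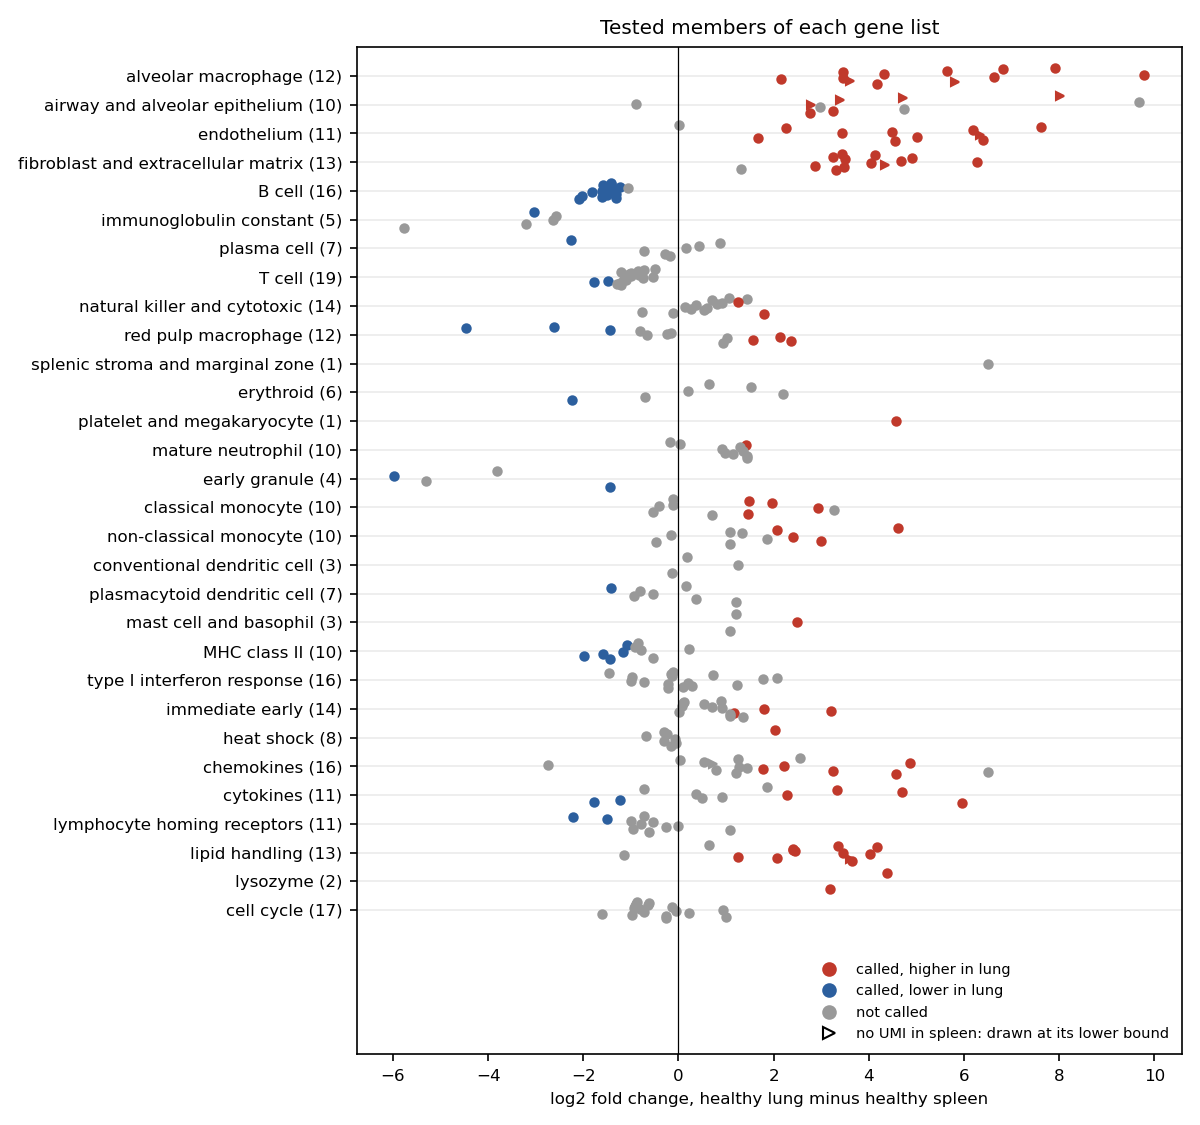
Log2 fold change, healthy lung minus healthy spleen, of each tested member of each gene list, with the number tested in parentheses; red points were called higher in lung, blue points lower in lung and grey points were not called, and triangles, genes with no UMI in spleen, are drawn at their lower bound. The 15 called B cell genes form a narrow band around their median of -1.44, while the alveolar macrophage genes spread widely to the right of 0.

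Most T cell genes were not called. Of 19 genes, all tested, 2 were called lower in lung, Cd5 and Cd6, which encode surface receptors that tune T cell signalling. Over all tested genes 1.88% were called lower. Without day 21, 3 of the 19 were called, with the top barcode left out 4, and by DESeq2 none. In edgeR's test 13 of the 19 had an unadjusted p under 0.05, against 1820 of all 9191 genes. The median log2 fold change was -1.05. Cd5 had 26, 21 and 1 UMIs in lung, against 39, 57 and 2 in spleen, a log2 fold change of -1.47 ± 0.48 and an adjusted p of 0.0252, or 0.0561 without day 21. Cd6 came to -1.77 ± 0.54 (adjusted p 0.0147, or 0.104 without day 21). The summed list made up 0.177, 0.170 and 0.0702 percent of lung UMIs on days 7, 14 and 21, against 0.342, 0.267 and 0.157 percent in spleen.

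Among the 15 genes with the largest difference toward spleen, 5 were immunoglobulin variable segments (Iglv2, Igkv3-12, Ighv3-1, Iglv1 and Igkv1-117) and 1 was Ighm, the constant region of IgM. The other 9 were Camp, an antimicrobial peptide of granulocyte precursors, Vcam1, an adhesion molecule, Spic, the transcription factor of red pulp macrophages, Eaf2, a transcription elongation factor, Cdca7, a target of MYC, Edaradd, an adaptor of the ectodysplasin receptor, Rnu11, the RNA of the minor spliceosome's U11 particle, Gm24265 and Gm24497. Of the 15, 12 had no overlap between the tissues, which held for 6.68% of all tested genes in that direction, and 9 were called without day 21. These 15 were also chosen for their fold change, so the lack of overlap follows in part from the choice. With the top barcode left out 9 were still tested, and all 9 were called. Reads of variable segments that resemble each other can be split in ways that no source used here describes, so single segments are uncertain.

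Ighm had 440, 360 and 18 UMIs in lung, against 1650, 4360 and 50 in spleen, or 500.3, 318 and 158 CPM in lung and 2979, 3681 and 2538 CPM in spleen. Every spleen library exceeded every lung library. The log2 fold change was -3.04 ± 0.44 with an adjusted p of 2.71e-08, but without day 21 it was not called (adjusted p 0.477), and it was called under 8 of 16 alternative settings, with adjusted p-values between 5.43e-21 and 0.477. In spleen 48.4% of its day-7 UMIs and 92.0% of its day-21 UMIs stood in 1 barcode. Igj (Jchain), which joins IgM and IgA units in secreting cells, had no UMI in lung at days 7 and 14 and 57 at day 21, against 693, 1265 and 178 UMIs in spleen. It was not called with all days (adjusted p 0.51) and was called without day 21 (adjusted p 4.26e-05); over 16 settings the adjusted p ran between 7.19e-30 and 1. The constant genes Igkc and Iglc2 behaved alike: neither was called with 3 days, and both were called lower in lung without day 21, with adjusted p-values of 0.000491 (range over settings 1.02e-16 to 1) and 0.00191 (6.49e-06 to 0.921). Of 7 tested plasma cell genes 1 was called, Mzb1, a chaperone of immunoglobulin assembly, with 46, 50 and 4 UMIs in lung, against 177, 189 and 3 in spleen (log2 fold change -2.26 ± 0.48, adjusted p 8.57e-05). Without day 21 Mzb1 was not called (adjusted p 0.376; 2.99e-09 to 0.606 over 16 settings), while 1 of 8 tested plasma cell genes was, Irf4, a transcription factor (adjusted p 0.0474). DESeq2 called none of 7.

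To set immunoglobulin beside the amount of B cell RNA, UMIs of 5 genes were divided by the UMIs of Cd79a, Cd79b and Ms4a1 in the same library. Ighm gave 0.478 ± 0.057 in lung and 1.95 ± 1.02 in spleen (SD, n = 3 each), with no overlap; the 2-sided exact permutation test gave p = 0.1, the smallest that 3 against 3 libraries allow, and 0.25 after Benjamini-Hochberg adjustment over the 5 ratios. H2-Ob gave 0.0406 ± 0.0352 in lung and 0.0937 ± 0.0272 in spleen, also with exact p = 0.1. Its day-21 values rest on 0 UMIs of H2-Ob in lung and 2 in spleen; the difference, lung minus spleen, was -0.0531 with all days, -0.0172 without day 21 and -0.014 in barcodes with 400 or more genes. For Mzb1 the ratio was 0.0749 ± 0.0342 in lung and 0.13 ± 0.0646 in spleen (exact p = 0.2). Fcer2a, which is a B cell gene itself, gave 0.136 ± 0.0809 in lung and 0.112 ± 0.0972 in spleen (exact p = 0.7), and Igkc gave 2.13 ± 2.04 in lung and 6.10 ± 6.84 in spleen (exact p = 0.5). Ighm, Igkc, Mzb1 and H2-Ob were each lower in lung on 3 of 3 days, and an exact permutation test paired by day, run after seeing the data, gave p = 0.25 for each, the smallest that 3 pairs allow, and 0.5 for Fcer2a. The day-21 ratios rest on 35 UMIs of the 3 genes in lung and 16 in spleen. Without day 21 the difference in the Ighm ratio, lung minus spleen, was -0.897 on average, against -1.47 with it, and in barcodes with 400 or more genes, where 1 and 2 UMIs of the 3 genes were left in lung and spleen at day 21, it was 0.728. No ratio passed the threshold, which this design cannot reach.

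**Figure D5:**
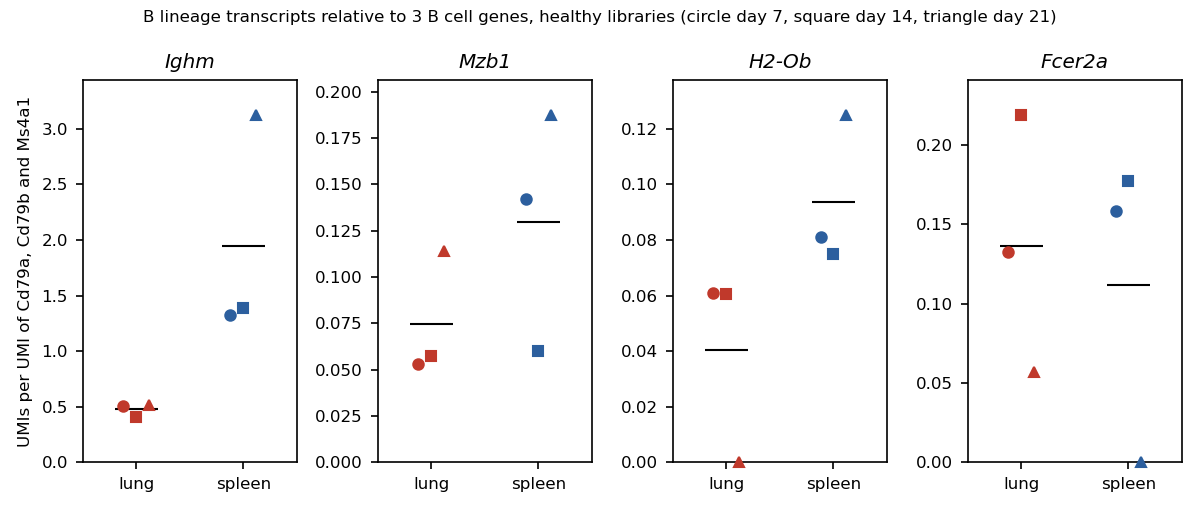
UMIs of 4 B lineage genes per UMI of Cd79a, Cd79b and Ms4a1 in each library, with healthy lung on the left in red and healthy spleen on the right in blue; the shape gives the day and the black line is the mean of 3 libraries. Ighm and H2-Ob had no overlap between lung and spleen, and Mzb1 and Fcer2a overlapped.

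Red pulp macrophage genes split. Of 12 tested, 3 were lower in lung, Spic, Vcam1 and Slc40a1, and 3 were higher, Axl, Slc11a1 and Cd68, which alveolar macrophages or other lung phagocytes also express; without day 21 the counts were 2 lower and 3 higher, and by DESeq2 2 and 2. Spic had 4, 15 and 1 UMIs in lung, against 40, 47 and 2 in spleen, without overlap in CPM (log2 fold change -2.61 ± 0.55, adjusted p 8.08e-05). Vcam1, also an endothelial gene, had 4, 3 and 0 UMIs in lung, against 50, 54 and 5 in spleen (log2 fold change -4.46 ± 0.61, adjusted p 5.52e-11). Slc40a1, the iron exporter ferroportin, had 38, 24 and 0 UMIs in lung, against 41, 73 and 3 in spleen (log2 fold change -1.44 ± 0.46, adjusted p 0.0207). It was called with all 3 days and not without day 21 (adjusted p 0.0592; 0.00638 to 0.784 over 16 settings). Cd68, a lysosomal glycoprotein of macrophages, had 91.0, 117 and 176 CPM in lung, against 28.9, 15.2 and 50.8 CPM in spleen, a log2 fold change of 2.36 ± 0.51. Of 9 genes of splenic stroma and marginal zone, 1 was tested, Cxcl13, the chemokine that draws B cells into follicles. It had 131, 17 and 106 UMIs in lung on days 7, 14 and 21, against 2, 0 and 0 in spleen, and was not called in edgeR's test (adjusted p 0.297, unadjusted p above 0.05; adjusted p 3.01e-18 to 0.496 over 14 settings). DESeq2 called it higher in lung. In lung 71.0%, 70.6% and 84.9% of its UMIs on days 7, 14 and 21 stood in 1 barcode.

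Early granule genes, which mark granulocyte precursors, were seen mainly in spleen, there largely in single barcodes. Their sum was 0.00478, 0.00874 and 0.00176 percent of UMIs in lung on days 7, 14 and 21, against 0.100, 0.0935 and 0.162 percent in spleen. At day 7 in spleen the top barcode of each gene held 93.5% of the UMIs of Camp, 97.4% of Ngp, 97.3% of Ltf and 93.5% of Lcn2; at day 14 the top barcode held 66.9% of Camp, 40.3% of Ngp, 96.2% of Fcnb and 84.8% of Mpo. Of 10 genes 4 were tested and 2 were called lower in lung, Camp and Lcn2, and none of 4 was called without day 21; DESeq2 called 2, Camp and Ngp. With the top barcode left out Lcn2 alone was tested, and it was not called (adjusted p 0.957). Camp had 0, 20 and 0 UMIs in lung, against 230, 287 and 15 in spleen. Elane, neutrophil elastase, was not tested: it had no UMI in lung, against 0, 165 and 2 in spleen, where 93.3% of the day-14 UMIs stood in 1 barcode. Erythroid genes gave 1 call among 6 tested, the transferrin receptor Tfrc, which dividing cells of many types also use, with 9, 8 and 1 UMIs in lung, against 28, 33 and 1 in spleen (log2 fold change -2.23 ± 0.57, adjusted p 0.00177). Globin genes varied between the libraries: Hba-a1 had 305, 891 and 2 UMIs in lung on days 7, 14 and 21, against 93, 28 and 16 in spleen, and Hba-a1, Hba-a2 and Hbb-bs were not called (adjusted p 0.932, 0.803 and 0.983). With the top barcode left out all 3 were called higher in lung (adjusted p 6.5e-11, 7.49e-13 and 2.04e-12), while over the 16 alternative settings the log2 fold change took either sign. Hba-a1 and Hba-a2 are near-identical copies, so their counts may be split between them. None of 17 cell cycle genes and none of 16 type I interferon genes was called in edgeR's test or by DESeq2; 3 genes of each list had an unadjusted p under 0.05, and the median log2 fold changes were -0.64 and -0.12. Of the interferon genes Oasl2 and Rsad2 were called higher in lung with the top barcode left out (adjusted p 0.0165 and 0.0165).

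The same tissue difference was then set against that of tumour-bearing mice, in a model of all 18 libraries, to ask whether it differed between the states. No gene of 10943 tested passed the threshold in edgeR's test; the lowest adjusted p was 0.225, and 1425 genes (13.0%) had an unadjusted p under 0.05. The count was 22 without day 7 and 222 with no filter on low counts. Of the 15 leading genes higher in healthy lung, 14 were also higher in lung on each of the 3 days in tumour-bearing mice, and of the 15 lower, 12 were also lower on each day. Some genes named above did not keep their order. Chi3l3 had 233, 100.3 and 717 CPM in tumour-bearing lung on days 7, 14 and 21, against 49.6, 357 and 2134 CPM in tumour-bearing spleen, and was higher in lung on 1 of 3 days. Its tissue difference in healthy mice minus that in tumour-bearing mice was 6.00 ± 1.42 on the log2 scale (SE), with an adjusted p of 0.227. Lyz2 had 5729.6, 6777 and 1961 CPM in tumour-bearing lung, against 1969.7, 7842 and 4832 CPM in tumour-bearing spleen, a difference of differences of 3.29 ± 0.66 (adjusted p 0.225). Slc40a1, lower in healthy lung, was higher in tumour-bearing lung on 3 of 3 days, with 207, 197 and 259 CPM, against 121, 73.1 and 55.0 CPM in tumour-bearing spleen (difference -2.86 ± 0.72, adjusted p 0.227). A p that misses the threshold does not show that the tissue differences were equal in both states.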

How the data were processed

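The authors deposited 1 table of UMI counts for each Drop-seq library, made without normalisation as far as the values show (whole numbers whose totals differ between libraries). Per the submitters' processing notes the authors used the genome build mm10 and Seurat version 2; the aligner, the annotation, bead barcode repair and cell calling are not named there. Barcodes with 200 or more genes and under 20% mitochondrial UMIs were kept. A barcode found in 2 or more libraries of a day stayed only where its UMIs were at least 5 times the next highest. No doublets were removed. The counts were summed per library and tested with edgeR 4.0.16 (R 4.3.3): quasi-likelihood fit, TMM factors, filterByExpr by tissue, and a model of tissue and day over the 9 healthy libraries, scaffold included, which left 4 residual degrees of freedom and a biological coefficient of variation of 0.2985 (0.229 without day 21). Adjustment followed Benjamini and Hochberg. The SE of a log2 fold change was calculated back from the test, as its absolute value divided by the square root of the F statistic. Totals of 19698 to 1184460 UMIs in the 6 lung and spleen libraries limit the precision, and intervals and floors (3 counts) cover counting error only. Day is the pair: the deviations of same-day lung and spleen libraries from their group means correlated across 9191 genes at 0.274, 0.178 and 0.322 (Pearson's r, across genes, which are not independent replicates). Between different days r ran from -0.301 (lung day 7, spleen day 21) to 0.196 (lung day 7, spleen day 14). The latter is above the same-day value of day 14, so these values do not settle whether the pairing holds.

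Gene lists and the rule for named genes were chosen with earlier results of these data known. Leading genes were the 15 called genes with the largest fold change in each direction among those with at least 30 UMIs and the same direction at days 7 and 14. Of 388 gene symbols looked up, 382 matched the reference and 5 an older symbol. The edgeR fits of the tissue difference and of its change between the states were run on simulated counts without a day effect. DESeq2 and the permutation tests were not run on simulated data. Alternatives included DESeq2 1.42.0, other filters and scalings, and each day left out. Sums and ratios used Python 3.11.15 with pandas 2.3.3 and scipy 1.17.1. The planned protein sequences were not used here, and some genes are not reported here.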

Additional observations from a re-analysis of the deposited data

How the results depend on the processing

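The day is the replicate block of the paired design, and the test called 954 genes with it. With no replicate block it called 639 genes, 578 higher and 61 lower in lung. Leaving out 1 day at a time gave 227 to 1037 genes, 217 to 849 higher and 10 to 188 lower in lung. With every shared barcode kept the counts were 29, 28 and 1 over 3 days, but 920, 743 and 177 without day 21. Barcodes under 10% mitochondrial UMIs gave 476, 419 and 57. Genes lower in lung numbered 64 with every shared barcode left out, 54 with DESeq2 and 34 with all 18 libraries in the fit. Library totals in place of TMM gave 966 genes, no filter on low counts 1140, lung and spleen libraries alone 1036, and barcodes with 400 or more genes 909. With the top barcode of each gene left out, chosen after seeing the data, the count was 945, and 1020 without day 21 as well. The tissue difference differed between the states for 0 to 22 genes when a day was left out and for 222 genes with no filter on low counts.

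Of 1659 comparisons over 110 named genes and 16 settings, 1161 kept their direction and side of the threshold, 437 lost the call, 49 gained it and 12 changed direction. Lcn2 changed to 0.023 with every shared barcode left out and 0.23 with the top barcode and day 21 left out. Leaving out 1 day at a time gave log2 fold changes of -0.86 to 2.52 for Hba-a1, -0.019 to 2.81 for Hba-a2 and -1.33 to 2.41 for Hbb-bs, and DESeq2 gave -0.51, -0.18 and -0.63. Hbb-bs was -0.0071 with library totals and -0.32 in barcodes under 10% mitochondrial UMIs. In lung minus spleen ratios to 3 B cell genes, barcodes with 400 or more genes gave 0.728 for Ighm, and barcodes under 10% mitochondrial UMIs gave -0.0204 for Fcer2a. The Ighm value includes a day-21 ratio of 4 in lung, over 1 UMI of the 3 genes, against 0 in spleen. At days 7 and 14 the Ighm ratio in these barcodes was 0.501 and 0.466 in lung, against 1.15 and 1.63 in spleen. The cause of the other changes of direction was not tested. Depth limits the day-21 spleen library most, at 27 barcodes.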
